A study of Macaca mulatta with 9 samples.

Results

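The nuclear genes that encode subunits of the mitochondrial respiratory chain and of ATP synthase were followed in the ovaries of rhesus monkeys of 3 ages. A gene was included when its symbol in the probe annotation began with NDUFA, NDUFB, NDUFC, NDUFS, NDUFV, SDH, UQCR or ATP5, or with COX followed by a digit from 4 to 8, and the NDUFAF assembly factors were left out. The rule found 62 genes among the 14132 genes that had a probe set with a symbol of their own. It uses symbols and no measured level, but it was chosen with earlier results of these data known. Complex I contributed 26 genes, complex II 7, complex III 6, complex IV 8 and complex V 15, and each gene was represented by its brightest probe set. The symbols include 4 assembly factors of complex II, SDHAF1 to SDHAF4. Other subunits, among them SDHD, UQCRH, COX4I1, COX5B and ATP5F1A and the 13 subunits encoded in mitochondrial DNA, were not analysed here. ATP5G1, the former symbol of ATP5MC1, was still attached to separate probe sets and was kept as a gene of its own.

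Female rhesus macaques (Macaca mulatta) were grouped by age, with 3 monkeys in each group: 3 to 4 years (young), 7 to 8 years (middle-aged) and 18 to 19 years (old). Fertility had ended in the oldest group, the middle group was reproductively healthy, and the youngest group, though cycling, was nulliparous. All were untreated animals whose vessels were rinsed with cold buffer before the ovary was frozen, and RNA of a piece of 1 ovary per monkey was hybridized to 1 one-colour Affymetrix array. Young and middle-aged ovaries were taken near proestrus by breeding records and old monkeys had lost reproductive capacity, so age and cycle state cannot be told apart. The arrays of a group are named by replicate number, each number being a different monkey, and values listed for a group are given in the order of replicates 1, 2 and 3.

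Oxidative phosphorylation takes electrons from NADH at complex I and from succinate at complex II, and passes them through coenzyme Q, complex III and cytochrome c to oxygen at complex IV. Complexes I, III and IV move protons across the inner mitochondrial membrane, and complex V, the ATP synthase, uses the returning protons to make ATP. In the ovary, mitochondria serve the large energy store of the oocyte, and in theca and luteal cells they hold the enzyme that opens steroid synthesis by cleaving cholesterol. Most subunits are nuclear genes with housekeeping expression, and a few subunits of complex IV have isoforms restricted to some tissues.

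Each array gave 1 intensity per probe set after RMA, a normalization that the authors applied and that leaves no absolute unit. Differences are given as log2 fold changes from limma, fitted over all 9 arrays with 1 mean per age group. Calls required a Benjamini-Hochberg adjusted p under 0.05, taken over 52766 probe sets, together with a difference of 1.5-fold or more. The members were bright as a rule: 53 of the 62 lay above the 75th percentile of all probe sets, an intensity of 116.4. The other 9 were NDUFV3, NDUFB10, NDUFA4L2, SDHAF1, SDHAF3, COX4I2, COX6A2, ATP5MC2 and ATP5PB, and of these only ATP5PB, at 20.3, lay below the median probe set, at 25.5. Detection calls were not used here, so the dim genes may lie near background.

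None of the 62 genes was called by limma between any 2 age groups. By the difference of group means, old ovaries were above young ovaries for 47 of the 62 genes, with a median log2 difference of 0.15 (1.11-fold). Old ovaries were higher than middle-aged ovaries for 55 of 62 genes, with a median of 0.22. Middle-aged and young ovaries lay closer, with a median of -0.062 and 44 of 62 genes lower in the middle-aged ovaries. The members varied most within the old group, where monkey 1 stood above monkey 2 and monkey 2 above monkey 3 for most genes. In whole-tissue RNA, fewer cells of a type and less RNA per cell cannot be told apart.

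The count of 0 between old and young stood beside 82 called of all 52766 probe sets, which is 0.155%. Between old and middle-aged ovaries all probe sets gave 18 calls (0.0341%), and between middle-aged and young ovaries 1 call (0.0019%). By brightest probe sets, the smallest adjusted p of any member in limma was 0.152, for NDUFA4 between old and young. A dimmer probe set of NDUFS7, lower in old than in young ovaries, had a limma adjusted p of 0.0876. At an unadjusted limma p under 0.05, 4 members were higher and 2 lower in old than in young ovaries. That is 6.45% and 3.23% of the members, beside 6.81% and 12% of all named genes. The share of members upward was thus near the background.

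Between old and middle-aged ovaries 7 members (11.3%) were higher and none lower at that limit, beside 3.67% higher and 7.61% lower of all named genes. Between middle-aged and young ovaries 2 members were higher and none lower, beside 1.42% and 1.88%. Both comparisons with old ovaries use the same old arrays, so their values are not independent of each other. The median log2 difference of all named genes was -0.0046 between old and young and 0.0034 between old and middle-aged ovaries, with 49.4% and 50.6% of them higher in old ovaries. Among the 6506 brighter named genes 44.7% were higher in old than in young ovaries.

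Groups that do not overlap in their 3 values give a second view. In old ovaries NDUFV3, NDUFA4, NDUFA4L2, COX6B1, COX7B and ATP5PF lay above all 3 young ovaries, and ATP5MC1 and ATP5MC2 lay below all 3. These 6 and 2 genes compare with 7.78% of named genes that were higher without overlap and 13.8% that were lower, where the members gave 9.68% and 3.23%, so the share upward was near the background. NDUFV3 counts by its brightest probe set, and its other probe set differed by -0.49. Against the middle-aged ovaries 7 genes were higher without overlap, NDUFS7, NDUFA13, NDUFB2, NDUFB7, NDUFA4, NDUFA4L2 and ATP5PF, which is 11.3% of the members, beside 5.55% of named genes, and none was lower, beside 9.22%. NDUFS7 counts here by its brightest probe set, and its other probe set lay below all middle-aged values in the old ovaries. Between middle-aged and young ovaries NDUFA4, UQCRB and COX8A were higher without overlap (4.87% of named genes) and NDUFS3, NDUFA13 and NDUFB2 were lower (4.51%).

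**Figure D1:**
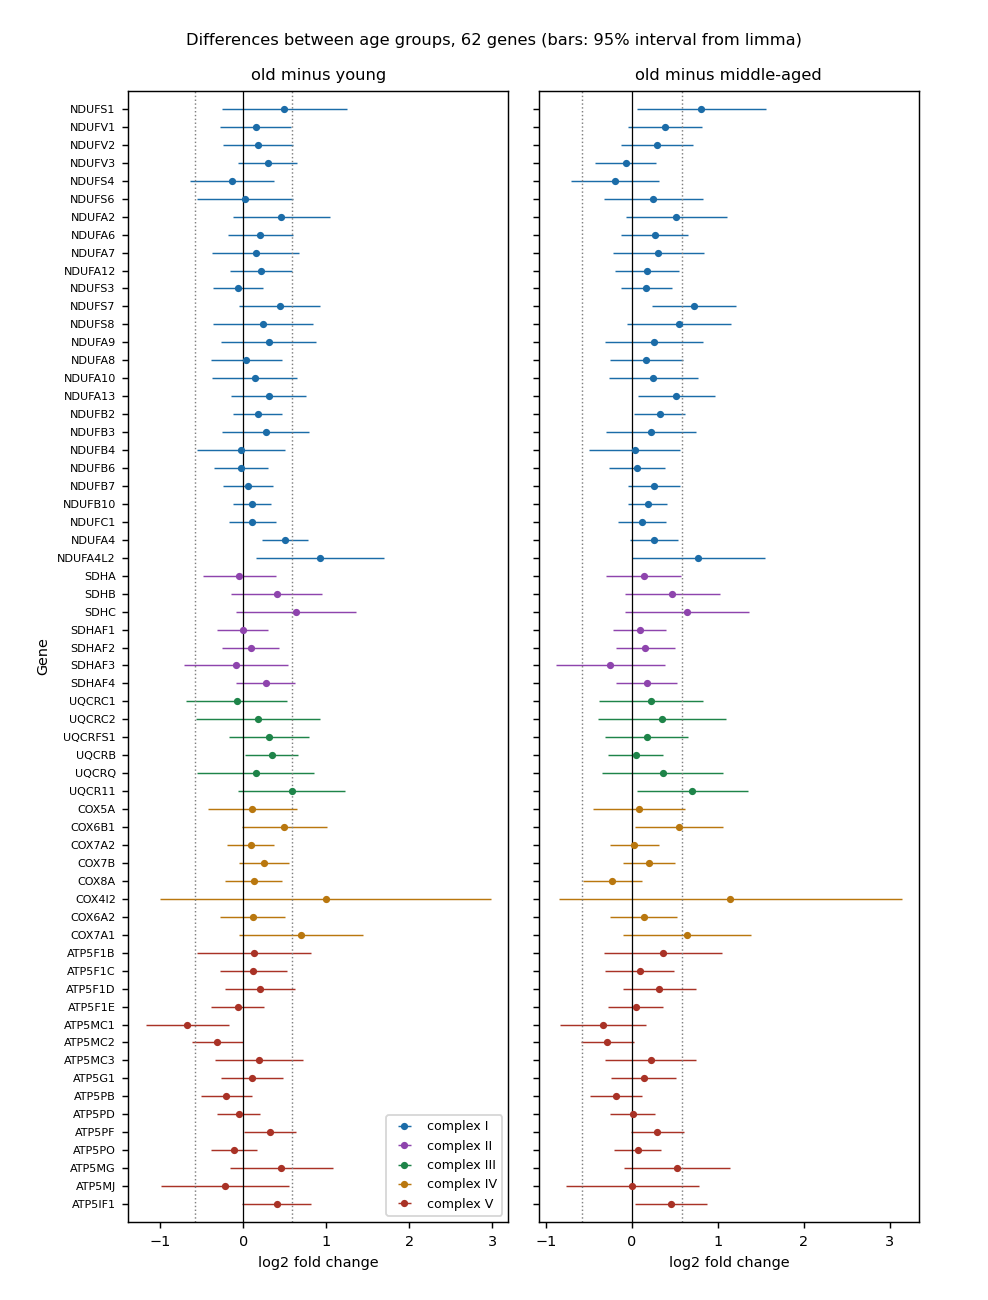
Log2 fold change of each of the 62 genes (points) with its 95% interval from limma (bars), for old minus young on the left and old minus middle-aged on the right, coloured by complex; the dotted lines mark a 1.5-fold difference in either direction. Most points lie to the right of 0, 47 of 62 on the left and 55 of 62 on the right, and most bars cross 0.

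The plot of fold changes also shows how much the 3 arrays per group can resolve. The standard error of the log2 difference had a median of 0.19 over the members, which makes the 95% interval reach 0.43 to either side, or 1.35-fold. For 22 of the 62 genes the interval between old and young lay wholly within 1.5-fold in both directions, and for 24 the interval between old and middle-aged did. The interval left out 0 for 6 genes between old and young and for 7 between old and middle-aged ovaries, without adjustment for the number of genes. Where the interval reached past 1.5-fold, a difference of that size was not resolved by this number of arrays.

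The level of the whole set differed more among the old monkeys than between the means of the age groups. To set genes of unlike brightness side by side, each gene's log2 intensity was taken relative to its mean over the 9 arrays, and the median over the 62 genes was read for each ovary. This median was -0.11, 0.026 and -0.043 in the young ovaries and -0.031, -0.03 and -0.19 in the middle-aged ovaries. In the old ovaries it was 0.41, 0.11 and -0.17. Old monkey 1 was thus above every other ovary, and old monkey 3 lay below all 3 young ovaries and 2 of the 3 middle-aged ovaries. The distance from old monkey 1 to old monkey 3 was 0.58 (1.49-fold), against a span of 0.13 among the young and 0.16 among the middle-aged ovaries.

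Gene by gene, old monkey 1 was the highest of the 9 ovaries for 44 of the 62 members (71%), beside 20% of all named genes and 24.4% of the brighter ones, and it was the lowest for 27.3% of the brighter ones. No member was highest in old monkey 3 or in middle-aged monkey 3. Middle-aged monkey 3 was the lowest ovary for 20 members (32.3%, beside 11.2% of named genes and 10.3% of the brighter ones). Old monkey 3 was the lowest for 16 members (25.8%), beside 17.1% of named genes and 22.2% of the brighter ones, so that share was near the background. The order of old monkey 1 over 2 over 3 held for 40 members (64.5%), beside 22.5% of named genes and 27.6% of the brighter ones. The SD over the old ovaries exceeded that of both other groups for 51 members (82.3%), beside 49.5% of named genes and 61.2% of the brighter ones. The median SD of a member was 0.13 in young, 0.17 in middle-aged and 0.33 in old ovaries on the log2 scale, where all named genes had 0.19, 0.18 and 0.25 and the brighter ones 0.19, 0.20 and 0.32. Against the brighter named genes, which were not matched to the members in level, the members were thus less variable in young and middle-aged ovaries. In old ovaries they were about as variable. These shares describe 9 ovaries in which the members vary together, and no test was made over the members.

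**Figure D2:**
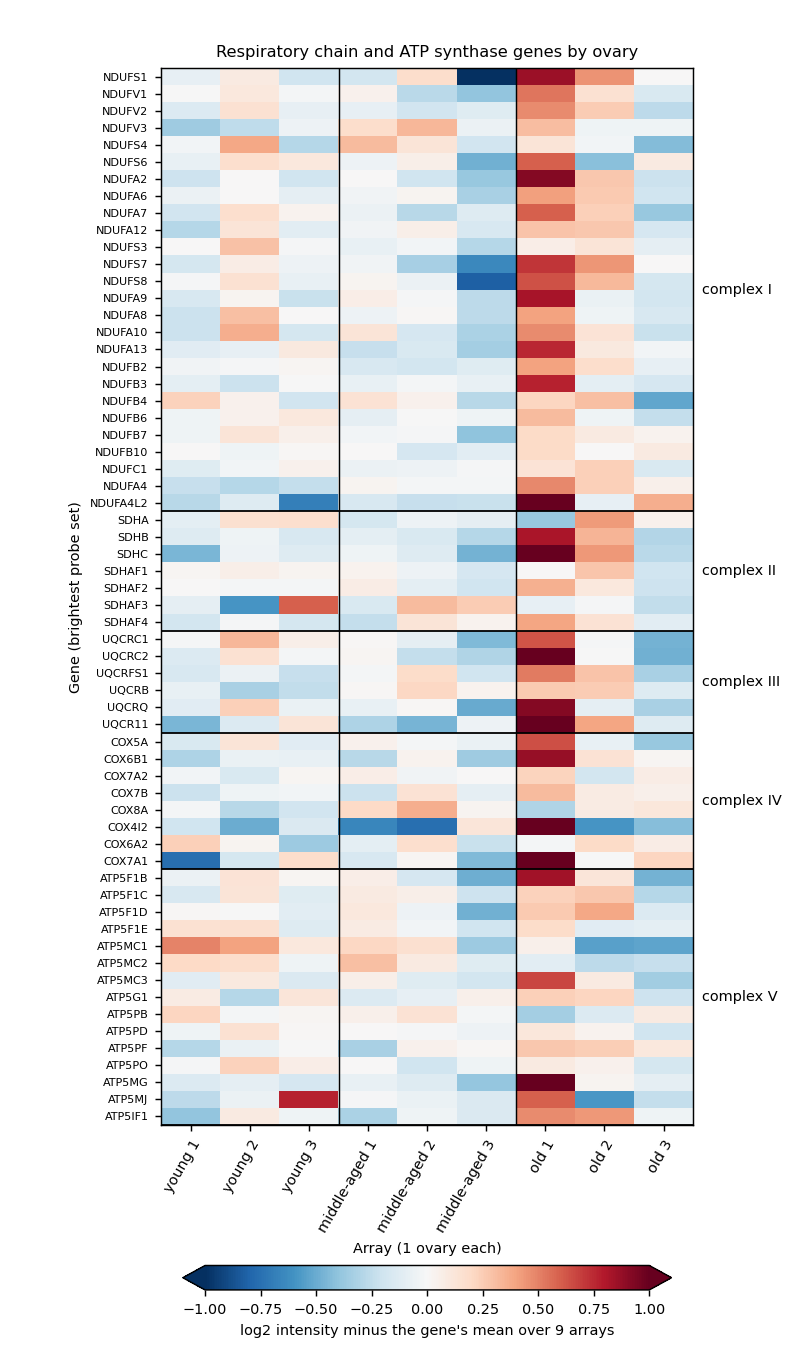
Log2 intensity of the 62 genes (rows, grouped by complex) in the 9 ovaries (columns), as the difference from each gene's mean over the 9 arrays; red is above and blue below the mean, and colours stop at 1 in either direction. The column of old monkey 1 is red for most rows (highest of 9 for 44 genes), and the columns of middle-aged monkey 3 and old monkey 3 are pale or blue.

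The complexes differed in how far the old ovaries lay apart. Complex III had the widest range, with medians of 0.77, 0.12 and -0.33 in the old ovaries, a distance of 1.10 (2.14-fold) from monkey 1 to monkey 3, and all 6 of its genes kept the order of monkeys 1, 2 and 3. Complex I had 0.47, 0.15 and -0.16 and complex II 0.35, 0.28 and -0.21. Complex IV differed in shape: its old medians were 0.48, 0.039 and 0.064, so that monkey 1 alone stood out and monkey 3 was not low. Complex V had the narrowest distance of the complexes that kept the order, with 0.23, 0.043 and -0.20.

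Between group means, the median log2 difference of old over young was 0.18 for complex I, 0.09 for complex II, 0.24 for complex III, 0.19 for complex IV and 0.11 for complex V. Of complex IV all 8 genes were higher in old ovaries, whereas complex V was nearly even with 8 of 15. Against middle-aged ovaries the medians were 0.26, 0.16, 0.28, 0.17 and 0.089 in the same order. The medians between old and young thus ran from 0.09 to 0.24 over the complexes, and in each complex old monkeys 1 and 3 lay farther apart than that range. Without old monkey 1 the median over all members between old and young was 0.024 and without old monkey 3 it was 0.34, and for complex III the value without old monkey 1 was -0.048.

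**Figure D3:**
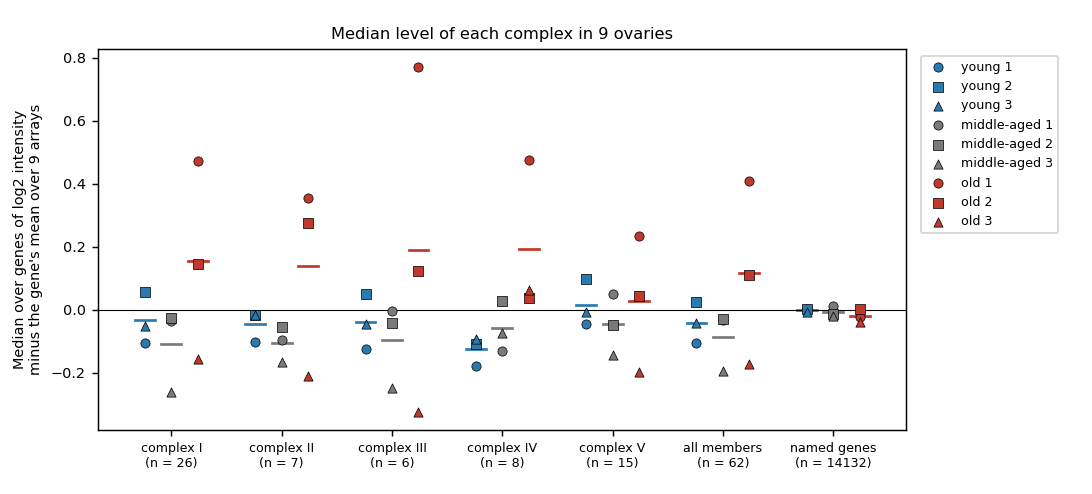
Median over the genes of each complex, over all 62 members and over all named genes (horizontal axis), of the log2 intensity as its difference from the gene's own mean (vertical axis), with 1 point per ovary and a bar at each group mean. In complex III the old ovaries run from 0.77 to -0.33, while the named genes as a whole stay near 0 in every ovary.

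Complex I oxidizes NADH in a matrix arm, made of an N module that binds NADH and a Q module that reduces coenzyme Q, and pumps protons in a membrane arm. The 10 N-module genes had a median log2 difference of 0.19 between old and young, the 4 Q-module genes 0.27 and the 10 accessory genes of the membrane arm 0.11. NDUFS1, the largest iron-sulphur subunit, had intensities of 900.4, 1013 and 828 in young, 836, 1073 and 441 in middle-aged and 1718, 1295 and 954 in old ovaries. Middle-aged monkey 3 was lowest and the old ovaries overlapped both other groups. The log2 difference was 0.81 ± 0.33 (SE) against middle-aged (limma adjusted p = 0.617) and 0.50 against young ovaries (adjusted p = 0.553). NDUFV1, the flavoprotein that binds NADH, measured 532, 574 and 525 in young, 548, 442 and 404 in middle-aged and 774, 592 and 478 in old ovaries. It showed the same order among the old monkeys, and old and young values overlapped.

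In the Q module, NDUFS7, which carries the last iron-sulphur cluster before coenzyme Q, measured 1036, 1233 and 1133 in young, 1145, 933 and 750.5 in middle-aged and 1929, 1596 and 1173 in old ovaries. The old values lay above all middle-aged values, by 0.72 ± 0.21 on the log2 scale (1.65-fold, limma adjusted p = 0.48), and overlapped the young values. A dimmer probe set of the same gene went the other way, with a log2 difference of -1.16 between old and young (limma adjusted p = 0.0876) and -0.97 between old and middle-aged ovaries (adjusted p = 0.328). On it the old ovaries stood at -0.53, -0.65 and -0.96 relative to its mean over the 9 arrays on the log2 scale, below the other 6 ovaries, which ran from 0.028 to 0.84, so the direction of NDUFS7 is uncertain. NDUFS3, another core subunit of this module, measured 1198, 1463 and 1181 in young, 1134, 1168 and 980.3 in middle-aged and 1247, 1304 and 1118 in old ovaries. It was 1 of 4 complex I genes with a lower mean in old than in young ovaries (-0.062). The accessory subunits NDUFS4 (-0.14), NDUFB4 (-0.029) and NDUFB6 (-0.025) were the others.

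In the membrane arm, the accessory subunit NDUFA13 measured 1655, 1687 and 1913 in young, 1523, 1608 and 1417 in middle-aged and 3012, 1912 and 1755 in old ovaries. Old and middle-aged values did not overlap, and the middle-aged values also lay below all young values. The log2 difference of old over middle-aged was 0.51 ± 0.20 (limma adjusted p = 0.59). NDUFB2 and NDUFB7, accessory subunits of the same arm, were higher without overlap in old than in middle-aged ovaries by 0.32 and 0.25. In NDUFB3, a further accessory subunit, old monkey 1 stood alone at 1735, old monkeys 2 and 3 were at 950.2 and 905, and the young and middle-aged ovaries ran from 875 to 1013. NDUFV3, a dim accessory gene of the N module, measured 25.9, 27.8 and 32.0 in young and 41.1, 32.1 and 32.1 in old ovaries. Its nearest values almost met, and its other probe set differed in sign.

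NDUFA4 and NDUFA4L2 carry complex I symbols, but NDUFA4 has since been placed in complex IV, and NDUFA4L2 is its hypoxia-inducible paralog. NDUFA4 measured 2297, 2209 and 2284 in young, 2741, 2658 and 2658 in middle-aged and 3749, 3171 and 2786 in old ovaries. The 3 groups did not overlap in any pair, and the levels stood in the order of age. Old exceeded young by 0.51 ± 0.12 on the log2 scale (1.42-fold, 95% interval 0.23 to 0.78), with an unadjusted limma p of 0.00281 and an adjusted p of 0.152. Middle-aged exceeded young by 0.25. The fold lay under 1.5 as well, so NDUFA4 was not called under either part of the rule, and 7.78% of named genes were higher without overlap between old and young.

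NDUFA4L2 was dim, at 42.7, 47.3 and 32.2 in young, 46.2, 44.1 and 44.3 in middle-aged and 138, 48.9 and 66.5 in old ovaries. Old monkey 1 held most of the difference, and the lowest old value was close to the highest young value. The log2 difference between old and young was 0.93 ± 0.34 (limma adjusted p = 0.292). The ratio of NDUFA4L2 to NDUFA4 within an ovary changed by 0.42 on the log2 scale between young and old (exact two-sided permutation test over ovaries, p = 0.4). It was 0.11 without old monkey 1, 0.25 without young monkey 3 and 0.74 without old monkey 2. The lowest p that 3 ovaries against 3 allow is 0.1.

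**Figure D4:**
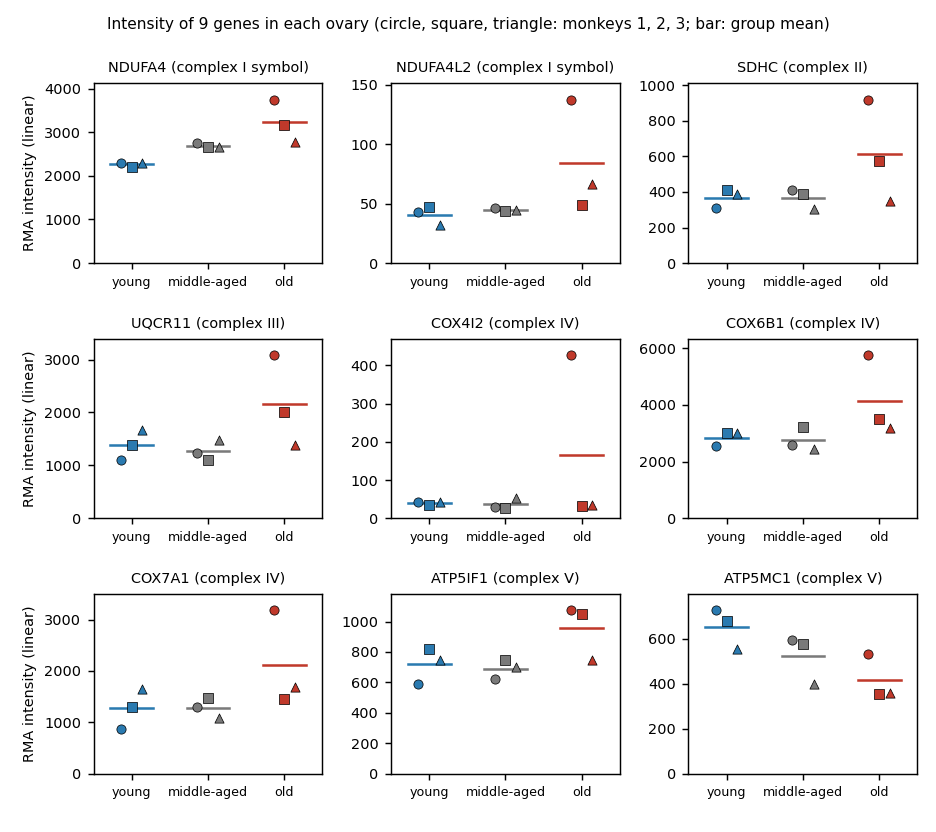
RMA intensity on a linear scale from 0 (vertical axis) of 9 genes in each ovary, by age group (horizontal axis); circles, squares and triangles are monkeys 1, 2 and 3 and bars are group means. NDUFA4 shows 3 groups that do not overlap, COX4I2 shows 1 old ovary at 427 above 8 ovaries that lie from 28.5 to 52.2, and ATP5MC1 is lower in all old ovaries than in all young ovaries.

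Complex II links the citric acid cycle to the chain through succinate oxidation and moves no protons. Its flavoprotein SDHA measured 894, 1073 and 1074 in young, 848, 926 and 901 in middle-aged and 739, 1284 and 986 in old ovaries. It did not keep the order of the old monkeys, since monkey 1 was the lowest of all 9 ovaries. The iron-sulphur subunit SDHB measured 574, 610.0 and 562 in young, 589, 565 and 516 in middle-aged and 1109, 796 and 513 in old ovaries. The membrane anchor SDHC measured 309.6, 409 and 387 in young, 412, 388 and 306 in middle-aged and 920.3, 572 and 351 in old ovaries. SDHB and SDHC were thus above every young and middle-aged ovary in old monkeys 1 and 2, and within or below their range in old monkey 3.

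The log2 difference of SDHC was 0.64 ± 0.32 against young (1.56-fold, 95% interval -0.083 to 1.36, limma adjusted p = 0.425) and 0.64 against middle-aged ovaries (adjusted p = 0.675). That of SDHB was 0.40 and 0.47. Among the assembly factors, SDHAF2, which helps to attach the flavin to SDHA, differed by 0.09 between old and young, SDHAF4 by 0.27, SDHAF1 by -0.0069 and SDHAF3 by -0.086. With the assembly factors left out, the median of the 3 catalytic and anchor subunits was 0.40 between old and young, against 0.042 for the 4 factors.

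Complex III passes electrons from coenzyme Q to cytochrome c. Its core subunit UQCRC2 measured 369.9, 453 and 400.3 in young, 412, 346 and 331 in middle-aged and 816, 405 and 292 in old ovaries. UQCRC1, the other core subunit, measured 1352, 1717 and 1424 in young, 1377, 1279 and 1003 in middle-aged and 2107, 1351 and 983 in old ovaries. In both genes old monkey 1 was the highest and old monkey 3 the lowest of all 9 ovaries, and the group means differed by only 0.17 and -0.081 between old and young. UQCRFS1, the Rieske iron-sulphur protein, measured 1261, 1071 and 700.1 in the old ovaries against young values from 751 to 846, with a log2 difference of 0.31 (limma adjusted p = 0.566).

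Of the small accessory subunits, UQCR11 measured 1110.4, 1391 and 1666 in young, 1234, 1107 and 1472 in middle-aged and 3087, 2009 and 1391 in old ovaries. Old monkeys 1 and 2 were above all other ovaries and old monkey 3 was level with young monkey 2. The log2 difference was 0.58 ± 0.28 against young (limma adjusted p = 0.419) and 0.70 against middle-aged ovaries (adjusted p = 0.614). UQCRB measured 375, 315 and 332 in young, 398, 455 and 404 in middle-aged and 474, 469 and 360.3 in old ovaries. Here the young ovaries were the low group: all middle-aged values and 2 of the 3 old values lay above them, with log2 differences of 0.30 and 0.34 (limma adjusted p = 1 and 0.341). The dimmer probe sets of UQCRB differed by less, at -0.039, 0.11 and 0.11 for middle-aged against young ovaries. For old against young ovaries they were at 0.20, 0.041 and 0.13. UQCRQ was also highest in old monkey 1, at 4499 against values from 1680.5 to 2812 in the young and middle-aged ovaries.

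Complex IV hands electrons to oxygen, and its nuclear subunits surround a core encoded in the mitochondrion. COX6B1, a subunit on the intermembrane side, measured 2542, 3006 and 2993 in young, 2592, 3224 and 2454 in middle-aged and 5761, 3486 and 3196 in old ovaries. All old values lay above all young values, and old monkey 3 fell just under middle-aged monkey 2. The log2 difference was 0.50 ± 0.22 against young (limma adjusted p = 0.386) and 0.55 against middle-aged ovaries (adjusted p = 0.617). COX7B, a small membrane subunit, was also higher without overlap in old than in young ovaries, with old values of 4241, 3607 and 3543 against young values of 2937, 3313 and 3340.5 and a log2 difference of 0.25. COX5A, a matrix-side subunit, measured 1968, 1196 and 969 in old ovaries, which enclosed the young range from 1133 to 1378.

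COX8A departed from the rest of the complex. It measured 422, 353 and 374 in young, 489, 548 and 436 in middle-aged and 347, 452 and 462 in old ovaries. The middle-aged ovaries were the high group, above all young ovaries by 0.36 on the log2 scale (limma adjusted p = 1), and old monkey 1 was the lowest of the 9 ovaries. COX8A and SDHA were thus among the 3 members that were lowest in the ovary where most members were highest, and ATP5PB, a peripheral stalk subunit of ATP synthase, was the other.

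Of all 62 members COX4I2 had the largest log2 difference between old and young, and it rested on 1 ovary. COX4I2, the lung and oxygen-responsive form of subunit 4, measured 41.9, 34.0 and 43.4 in young, 30.5, 28.5 and 52.2 in middle-aged and 427, 31.9 and 35.7 in old ovaries. Old monkey 1 alone was high, and old monkeys 2 and 3 lay between the lowest and highest of the young and middle-aged values. The log2 difference between old and young was 0.99 ± 0.87 (95% interval -1.004 to 2.99, limma adjusted p = 0.661). COX4I1, the common form of subunit 4, was not analysed here, so the balance of the forms is not known. COX6A2, the muscle form of subunit 6A, was dim in all groups, from 45.3 to 68.7.

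COX7A1, the heart and muscle form of subunit 7A, measured 866, 1296 and 1651 in young, 1307, 1479 and 1075 in middle-aged and 3180.0, 1458 and 1694 in old ovaries. Its old values overlapped both other groups, with a log2 difference of 0.69 ± 0.33 against young ovaries (limma adjusted p = 0.405). COX7A2, the common form, differed by 0.091 and ran from 675 to 895 in the old ovaries. The log2 ratio of COX7A1 to COX7A2, centred on its mean over the 9 ovaries, was -0.73, -0.022 and 0.16 in young, -0.22, 0.053 and -0.45 in middle-aged and 0.90, 0.18 and 0.14 in old ovaries. The ratio was higher without overlap in old than in middle-aged ovaries by 0.61, with an exact two-sided permutation p = 0.1, the lowest possible, and p = 0.6 after Benjamini-Hochberg adjustment over 6 comparisons of 2 isoform pairs. Between old and young ovaries the change was 0.60 (exact permutation p = 0.2). Without old monkey 1 the change was 0.37 against middle-aged and 0.36 against young ovaries, and without young monkey 1 it was 0.34 against young ovaries.

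Complex V consists of a catalytic F1 head, a rotating ring of c subunits in the membrane, a peripheral stalk that holds the head still, and an inhibitor protein. The catalytic beta subunit ATP5F1B measured 772, 884 and 817 in young, 844, 718 and 574 in middle-aged and 1441, 874 and 579 in old ovaries. The old ovaries spanned the young values on both sides, and the log2 difference to young ovaries was 0.13 ± 0.30. A dimmer probe set of the gene differed by -0.74 (limma adjusted p = 0.339). The gamma and delta subunits ATP5F1C and ATP5F1D differed by 0.12 and 0.20, and the epsilon subunit ATP5F1E by -0.068.

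The c-ring genes encode the same mature protein with different import sequences, and their differences had unlike signs. ATP5MC1 measured 725, 679.6 and 554 in young, 591, 576 and 399 in middle-aged and 533, 353 and 357 in old ovaries. All old values lay below all young values, and old monkey 1 overlapped the middle-aged range. The log2 difference between old and young was -0.67 ± 0.22 (0.627-fold, 95% interval -1.18 to -0.17), with an unadjusted limma p of 0.0143 and an adjusted p of 0.248. ATP5MC2 was dim and also lower, at 56.5, 50.7 and 51.8 in old against 70.0, 68.8 and 59.2 in young ovaries, a log2 difference of -0.31 (limma adjusted p = 0.361). ATP5MC3 kept the order of the old monkeys, with 5713, 3821 and 2824, and a difference of 0.19. The probe sets under the old symbol ATP5G1 differed by 0.11 at the brightest, so they did not repeat the value of ATP5MC1.

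In the peripheral stalk, ATP5PF, known as coupling factor 6, measured 2120.0, 2468 and 2568 in young, 2063, 2663 and 2599 in middle-aged and 3108, 3057 and 2772 in old ovaries. The old values lay above all values of both other groups, by 0.32 ± 0.14 against young (limma adjusted p = 0.352) and 0.29 against middle-aged ovaries (adjusted p = 0.649). The stalk subunits ATP5PD and ATP5PO differed from young by -0.055 and -0.11. ATP5MG, a membrane subunit at the dimer interface, had 1 high ovary, old monkey 1 at 9949.8, against values from 3705 to 4603 in young and middle-aged ovaries. ATP5IF1, the inhibitor that stops the enzyme from running backwards, measured 591, 823 and 750.2 in young, 621, 750.2 and 703 in middle-aged and 1074, 1048 and 750.2 in old ovaries. Old monkeys 1 and 2 were above all others and old monkey 3 lay within their range. The log2 differences were 0.40 against young (limma adjusted p = 0.384) and 0.46 against middle-aged ovaries (adjusted p = 0.61). On the dimmer probe set of ATP5IF1 they were -0.030 and -0.12, and old monkey 1 was the lowest ovary, so the rise rests on 1 probe set.

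A choice of probe set mattered for some members. The 62 genes had 102 probe sets with 1 symbol, and limma called none of the 102 in any comparison. At an unadjusted limma p under 0.05, 7 of the 102 were higher and 5 lower in old than in young ovaries. Of all probe sets 5.58% were higher and 7.89% lower. Against the middle-aged ovaries 11 were higher and 2 lower, beside 3.08% and 4.79% of all probe sets. In middle-aged than in young ovaries 3 were higher and 0 lower, beside 1.45% and 1.73%. Of the 30 genes with more than 1 probe set, 19 had the same sign between old and young in all of them, and the median range among the probe sets of a gene was 0.26 on the log2 scale. The widest ranges were those of NDUFS7, 1.60, ATP5F1E, 1.29, whose dimmer probe set differed by 1.22, and NDUFA6, 1.02. The 5 probe sets of NDUFA6, an accessory subunit of the N module, all had a higher mean in old ovaries, from 0.21 at the brightest to 1.23.

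Other values varied with the level of the members. Markers of steroid-making cells (5 of 10 listed genes measured) had a median of 0.34, -0.31 and -1.44 in young, 0.049, 0.15 and -1.67 in middle-aged and 2.35, 1.91 and -0.19 in old ovaries on the same relative log2 scale. Their summed intensity ran from 2291 to 7339 in young, from 1926 to 7364 in middle-aged and from 8199 to 37920.0 in old ovaries. STAR, which brings cholesterol into mitochondria, measured 21679, 12233 and 3448 in the old ovaries, and FDX1, the electron donor of the cleavage enzyme, 12400.3, 6392 and 1727. STAR, FDX1 and the median of the 5 markers therefore kept the order that the old ovaries had for the members, whereas the other 3 markers did not. In the old ovaries CYP17A1, a hydroxylase of androgen synthesis, measured 337, 3053 and 2105, FDXR, the reductase that serves FDX1, 1417, 2513 and 558, and HSD3B2, which makes progesterone from pregnenolone, 2087, 123 and 360.4. Among the young ovaries the orders of the marker median and of the members differed. Middle-aged monkey 3 was the lowest of its group for the steroid markers and for the members. The part of steroid-making or other cells in the members' levels was not tested. None of these markers was at 0, a value that RMA intensities do not take.

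Markers of endothelium (10 of 11 measured) had medians of 0.89, -0.34 and 1.24 in the old ovaries. Markers of smooth muscle and pericytes (8 of 13 measured) had -0.03, -0.42 and 1.30. Both list medians were thus highest in old monkey 3, where the members were low, but not every marker was. CDH5, TIE1, KDR and FLT1 of endothelium and MCAM of the smooth muscle list were highest in old monkey 1. In the old ovaries CDH5 measured 1151, 195 and 651, and MCAM 3645, 499 and 1794. The endothelium sum ran from 2463 to 3109.7 in young, from 3109 to 6234 in middle-aged and from 3512 to 11704.5 in old ovaries. The smooth muscle sum ran from 4792 to 6083 in young, from 7309 to 14735 in middle-aged and from 6627 to 20945 in old ovaries. Granulosa markers (7 of 10 measured) had old medians of -0.036, -0.14 and -0.73, in the members' order. Middle-aged monkey 3 was lowest of its group for them, at -1.21. Stromal fibroblast markers (8 of 9 measured) had -0.49, 0.017 and 0.32, the reverse order. SERPINE2 of granulosa (3561, 15021 and 6991) and COL1A1 of stroma (381, 401 and 227) departed from these orders in the old ovaries. FABP4 of fat cells measured 165, 255 and 11079 there, but ADIPOQ 297, 435 and 422. Oocyte markers (8 of 12 measured), which check the tissue label, had medians of 0.63, 1.68 and 1.83 in young, 0.14, 0.62 and 1.33 in middle-aged and -2.07, -2.38 and -2.56 in old ovaries. This median was low in all 3 old ovaries, with monkey 1 highest and monkey 3 lowest of them. ZP3, FIGLA, NLRP5, ZAR1 and OOEP lay below every young and middle-aged value in the old ovaries, whereas BMP15 and ZP1 overlapped the middle-aged values. ZP4 went the other way, at 391, 305 and 222 in old against 180, 137 and 191 in young ovaries.

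RNA measures varied too. The log2 ratio of the 3′ to the 5′ control probe set of GAPDH, which rises with RNA breakdown or short labelled RNA, was 1.77, 1.99 and 2.22 in young, 1.69, 1.86 and 2.25 in middle-aged and 1.64, 2.11 and 2.36 in old ovaries. Replicate 3 of each age had the highest ratio and replicate 1 the lowest. In the old group the order of this ratio was the reverse of that of the members, and among the young ovaries it was not. In the middle-aged group monkey 3 had the highest ratio and the lowest median of the members. The actin 3′ to 5′ log2 ratio was 3.89, 4.08 and 4.38 in the old ovaries. Poly-A spike-ins were there at -0.30, 0.090 and 0.74 relative to the mean array. Hybridization spike-ins were at -0.24, 0.10 and 0.38, both on the log2 scale. These 3 measures also reversed the members' order in the old group, but not in the young or the middle-aged group. Old monkey 1 also had the lowest median correlation with the other arrays, 0.957, where the other 8 arrays lay between 0.965 and 0.983. The part of RNA quality or of array handling in the members' levels was not tested.

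**Figure D5:**
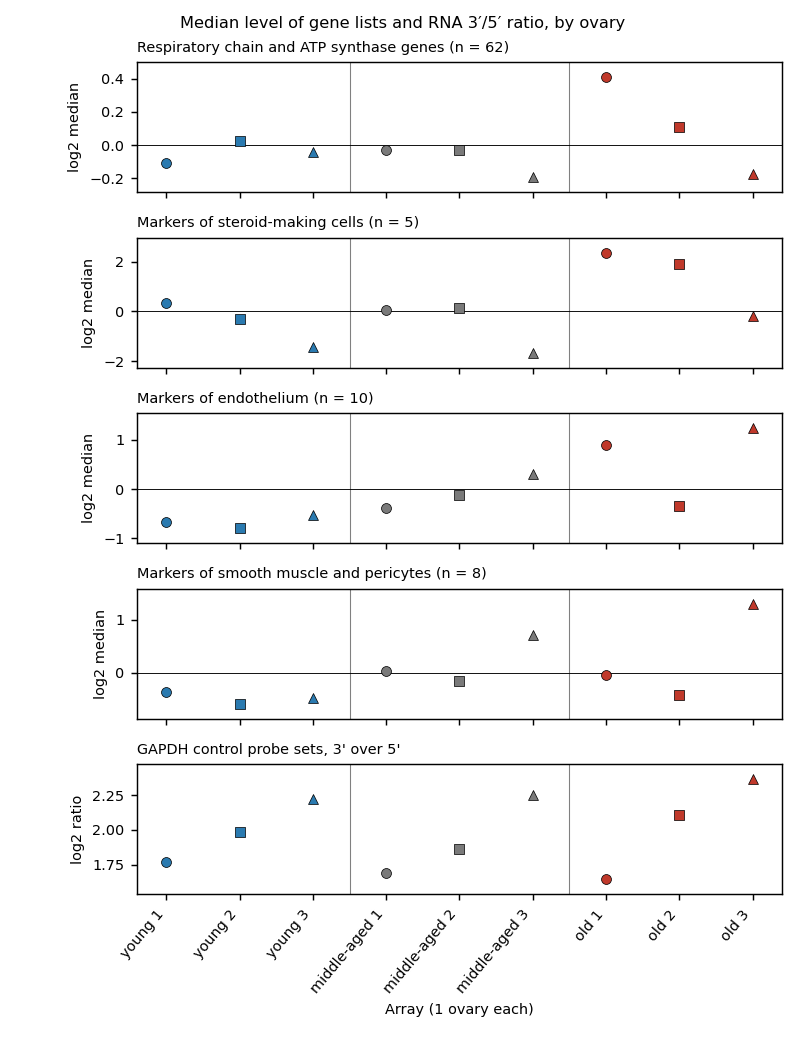
Median log2 intensity as the difference from the 9-array mean of each gene, for the 62 members and for 3 lists of cell type markers, and the log2 ratio of the 3′ to the 5′ control probe set of GAPDH (vertical axes), in each of the 9 ovaries (horizontal axis). In the old ovaries the members run 0.41, 0.11 and -0.17 while the steroid-making markers run 2.35, 1.91 and -0.19 and the GAPDH ratio rises from 1.64 to 2.36.

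Genes that work beside the chain were followed in lists written from general knowledge, with earlier results of these data known. Of their 92 measured genes limma called none between any 2 age groups. At an unadjusted limma p under 0.05, 12 of the 92 were higher and 9 lower in old than in young ovaries. Of all named genes 6.81% were higher and 12% lower. Against the middle-aged ovaries 11 were higher and 7 lower, beside 3.67% and 7.61% of named genes. In middle-aged than in young ovaries 0 were higher and 1 lower, beside 1.42% and 1.88%. The electron carriers and dehydrogenases that feed coenzyme Q or cytochrome c (6 of 8 measured) had a median log2 difference of 0.34 between old and young, with all 6 positive. ETFDH, which passes electrons from fatty acid oxidation to coenzyme Q, had the smallest p among them, with a difference of 1.14 ± 0.41 (limma adjusted p = 0.29). Coenzyme Q synthesis (11 of 13) had a median of 0.22, with COQ10B, a coenzyme Q binding protein, at 1.09 and PDSS1, which makes the isoprenoid tail of coenzyme Q, at -0.77 (limma adjusted p = 0.112).

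Assembly factors of the complexes (32 of 44) had a median of 0.089, from COA1 at -0.78 to TIMMDC1, a complex I assembly factor, at 0.75. The citric acid cycle with pyruvate dehydrogenase (10 of 16) had 0.15, where SUCLA2, a succinyl-CoA ligase subunit, was at 0.48 and DLAT, of the pyruvate dehydrogenase complex, at -0.996. Nucleotide, phosphate and ion carriers (7 of 9) had -0.012, with the ADP/ATP carrier SLC25A4 at 0.78 and the channel VDAC3 at -0.23. General markers of mitochondria (8 of 12) had 0.089, with the import receptor TOMM20 at -0.53 and IMMT, which shapes the cristae, at 0.46. Antioxidant genes (6 of 10) had 0.30, all 6 positive, with the mitochondrial peroxidase PRDX3 at 0.61. By ovary, the old medians were 0.50, -0.020 and -0.42 for general markers of mitochondria and 0.31, 0.13 and -0.17 for the citric acid cycle. Assembly factors had 0.22, 0.19 and -0.21, coenzyme Q synthesis 0.37, 0.35 and -0.13. Electron carriers had 0.48, 0.18 and 0.090, and the nucleotide, phosphate and ion carriers 0.16, 0.030 and -0.20. These lists thus kept the members' order, and antioxidant genes, at 0.23, 0.33 and 0.028, did not.

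The list of mitochondrial biogenesis and mitochondrial DNA expression (12 of 19) went against the members in sign. Of its 12 measured genes 9 had a lower mean in old than in young ovaries, with a median log2 difference of -0.26. GABPA, a transcription factor known to act on many promoters of respiratory chain genes, was at -1.06 ± 0.24 (limma adjusted p = 0.132), and MTERF1, which binds mitochondrial DNA, was at 0.28. GABPA was dim, at 30.7, 61.5 and 53.0 in young and 23.8, 23.0 and 20.0 in old ovaries. Its old values lay below the median probe set, at 25.5, and may lie near background. The median of this list in each ovary was 0.079, 0.10 and 0.19 in young, 0.055, 0.12 and -0.03 in middle-aged and -0.21, -0.011 and -0.18 in old ovaries, so old monkeys 1 and 3, which were far apart for the members, were both low. At an unadjusted limma p under 0.05, 1 of the 12 genes was higher and 4 were lower between old and young, beside 6.81% and 12% of named genes.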

How the data were processed

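Ovarian RNA of 9 monkeys was measured on 9 one-colour arrays, 3 per age group. Per the labels the authors made the deposited intensity values with RMA (version not stated), 1 linear value per probe set, whereas the methods of the paper describe LOWESS normalization with dye reversal, so the route rests on the labels. Of 52865 probe sets 99 controls were left out, and the other 52766 were taken to log2 and fitted with limma (version 3.58.1) in R (version 4.3.3). Names come from the array annotation, which gave 24956 probe sets 1 symbol, 361 several and 27449 none; 12 probe sets with several symbols, a member among them, were left out. Of the 62 members, 61 have their Entrez ID and symbol in the RefSeq gene table. Members, lists and subunit groups were chosen with earlier results of these data known. Members named are, per complex, those with the smallest p in each direction, core subunits, restricted isoforms and those whose probe sets differ most; further genes, such as NDUFB2, NDUFB3, NDUFB7, UQCRQ, ATP5MC3 and ATP5MG, were chosen after their values were seen. Isoform ratios used exact permutation tests. The model was tested on simulated data. Alternatives were other scalings, filters, variance settings, probe set rules, member rules, a replicate block and leaving out arrays.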

Additional observations from a re-analysis of the deposited data

How the results depend on the processing

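No member was called under any alternative, which were 2 further scalings (centring and quantile normalization), a robust variance trend, array weights, a filter on dim probe sets, dropping the fold minimum, averaging probe sets, updated symbols, a narrower choice of members, fitting 2 groups at a time, the replicate block and leaving out each array. The number called stayed 0 with the replicate block. The labels give a replicate number and do not say what arrays of the same number share. The deviations of arrays with the same number correlated between -0.0247 and 0.41. In each comparison replicate 3 had the highest of these correlations, 0.252 for old and young, 0.355 for old and middle-aged and 0.41 for middle-aged and young. The array that correlated best in the other group had the same number, except for replicate 1 of old and young and replicate 2 of old and middle-aged. Whether like-numbered arrays were handled together was not tested. Medians depended on old monkeys 1 and 3, and the cause was not tested. Leaving out 1 array at a time, the median over all members between old and young ran from 0.024 (without old monkey 1) to 0.34 (without old monkey 3). For complex V it ran from -0.096 to 0.25 against young and from 0.011 to 0.27 against middle-aged ovaries, and for complex III from -0.048 to 0.49 and from -0.021 to 0.54, with the same arrays left out. Leaving out replicate 3 of every age together was chosen after seeing the data, and complex II then had 0.29 and complex V 0.27 between old and young. Without assembly factors and restricted isoforms complex II had 0.40 against young and 0.47 against middle-aged ovaries. The other scalings moved the median of all named genes by less than 0.1. Signal over background was not measured per probe set.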

Other observations

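Some members had exactly equal intensities in different ovaries. NDUFA4 was 2741, 2658 and 2658 in the middle-aged ovaries, with monkeys 2 and 3 equal, and ATP5IF1 was 750.2 in young monkey 3, middle-aged monkey 2 and old monkey 3. Such equal values occurred in 7 of the 62 members (11.3%), in 18.1% of all named genes and in 38.9% of all probe sets.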
